A study of Mus musculus with 16 samples.

Results

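Vomeronasal type 1 receptors (Vmn1r genes, formerly V1r) were taken as every gene of the array whose platform symbol is Vmn1r followed by a number only. The rule gave 199 genes of the 19505 in the table, each with 1 probe set, and none was chosen by its level. Among these, 196 different sets of values were measured, because 3 pairs had the same values on all 16 arrays (Vmn1r63 with Vmn1r187, Vmn1r62 with Vmn1r186 and Vmn1r100 with Vmn1r148), so each pair is 1 measurement. All 199 symbols were found in the RefSeq gene table of assembly GRCm38.p6, which places 95 on chromosome 7, 51 on chromosome 6, 35 on chromosome 13, 14 on chromosome 17, 2 on chromosome 4 and 1 each on chromosomes 1 and 18. An older V1r subfamily letter was listed for 125 of them.

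Affymetrix arrays were run on 16 libraries made from olfactory mucosa cells that had been sorted by green fluorescent protein (GFP). All mice were S100a5-tauGFP reporter animals of the C57BL/6 strain, of both sexes and 7 to 12 weeks old. The 24 mice stayed in clean air and received pulses either of 2 odorants together, isoamyl acetate and whiskey lactone, or of filtered air, the vehicle. Cells of 3 mice were pooled before sorting, which gave 4 libraries each of odor titled GFP+, odor titled GFP-, vehicle titled GFP+ and vehicle titled GFP-. The 2 libraries of a pool come from the same mice. GFP here reports S100a5, a calcium-binding protein gene of olfactory sensory neurons whose level follows odor-evoked activity, so the sort selects on the reporter and not on a receptor.

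Vmn1r genes encode G protein-coupled receptors of the vomeronasal organ, a separate chemosensory organ at the base of the nasal septum. Each sensory neuron in the apical layer of that organ carries mostly 1 such receptor, couples it to the G protein subunit Gnai2, and opens the channel Trpc2. The receptors respond to small molecules of urine and secretions, among them sulfated steroids. Vmn2r genes encode the receptors of the basal layer, which couple to Gnao1 and bind peptides and proteins. Neurons of the main olfactory epithelium use odorant receptors (Olfr genes) and trace amine-associated receptors (Taar genes) instead. In humans the relative VN1R1 is transcribed in the olfactory mucosa.

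Values are the authors' log2 values, and differences are titled GFP+ minus titled GFP- or odor minus vehicle on that scale. The sample titles and the cell type tags name opposite fractions in all 16 samples. Groups follow the titles, and every fraction difference would change sign if the tags were right. S100a5 itself was lower in the libraries titled GFP+, at 15.05 to 15.55 in odor titled GFP+ against 16.04 to 16.66 in odor titled GFP-. The 2 libraries of vehicle pool 3 went against the other vehicle pools for S100a5, with 16.37 in titled GFP+ and 14.99 in titled GFP-. Counts of Vmn1r genes that passed are therefore given on 16 arrays and on the 14 arrays without that pool. Marker genes are counted on the 14 arrays, and those that did not pass for odor on 16 arrays are named.

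Vmn1r genes were listed far below the odorant receptors of the same cells. The median over the 199 genes of the mean over 16 arrays was 3.69, with a range of 2.66 to 6.40. Odorant receptors had a median of 8.72 (1080 genes) and trace amine-associated receptors 8.31 (15 genes), while all genes had 6.90. Every one of the 199 lay below the median of all genes. The 2 chemosensory families of other organs had similar levels, with 3.90 for Vmn2r genes (120 genes) and 3.61 for the bitter taste receptors, Tas2r genes (35 genes). Levels of different probe sets also carry the affinity of their probes, so these are comparisons of distributions and not of amounts.

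**Figure D1:**
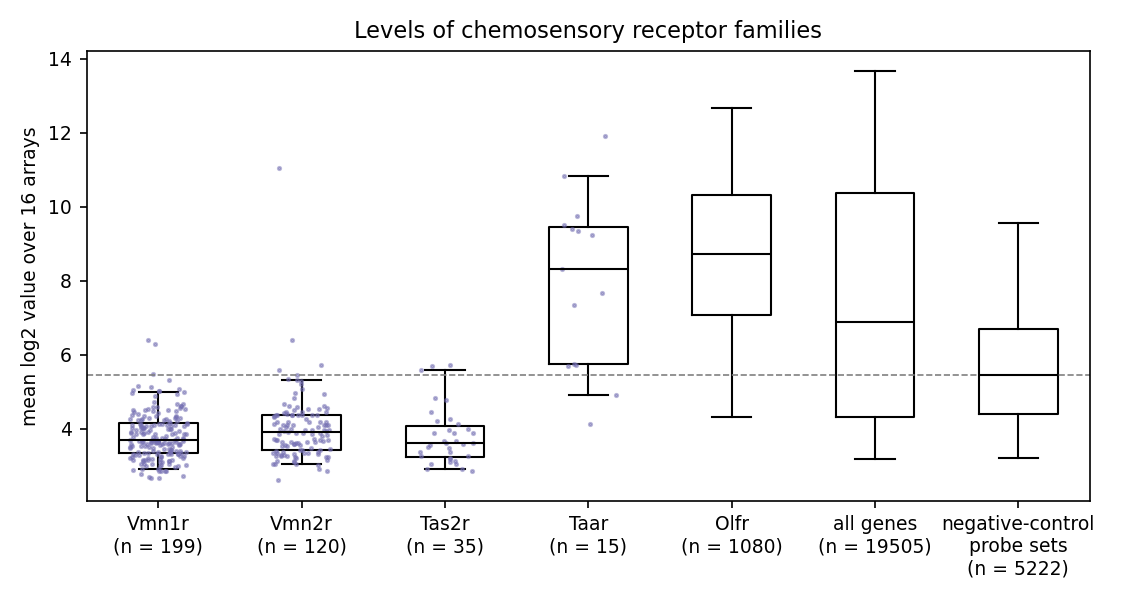
Mean log2 value over 16 arrays of each gene by receptor family. Boxes give the quartiles with the median as a line, whiskers run from the 5th to the 95th percentile, points are single genes (not drawn for Olfr, all genes and negative controls), and the dashed line is the median of the negative-control probe sets. The Vmn1r, Vmn2r and Tas2r boxes lie below the dashed line, and the Taar and Olfr boxes lie above it.

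The array's 5222 negative-control probe sets had a median of 5.45, a 5th percentile of 3.22 and a 95th percentile of 9.56. Of the 199 Vmn1r genes, 196 (98.5%) had a mean below that median, against 7604 (39.0%) of all genes. The 3 above it were Vmn1r208, Vmn1r117 and Vmn1r177, and 0 were above the 95th percentile. Of the 3184 single values (199 genes on 16 arrays), 70 exceeded the negative-control median of their own library. For 180 genes this happened in no library, and for 2 genes in every library. The means of the negative controls spread widely, from 2.24 to 18.52 with quartiles of 4.40 and 6.71, and were not matched to the probes of any gene. The array's background probe sets by GC content went down to 2.38. A value below the negative-control median therefore does not show that a transcript is absent.

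Vmn1r208, known before as V1rh9 and located on chromosome 13, had the highest mean. Its values were 5.79, 5.63, 6.37 and 6.10 in odor titled GFP+, 6.90, 6.62, 6.07 and 6.75 in odor titled GFP-, 6.43, 6.21, 6.22 and 6.48 in vehicle titled GFP+, and 6.45, 6.46, 6.89 and 7.02 in vehicle titled GFP-. No library listed it below 5.63. Vmn1r117 on chromosome 7 was next, at a mean of 6.30, with 5.71 to 6.49 in odor titled GFP+, 6.11 to 6.50 in odor titled GFP-, 6.25 to 6.46 in vehicle titled GFP+ and 5.90 to 6.80 in vehicle titled GFP-. Vmn1r177 (V1rd12) had a mean of 5.48, close to the negative-control median. The order below these 3 was Vmn1r189 (5.33), Vmn1r222 (5.15), Vmn1r175 (5.14), Vmn1r228 (5.09) and Vmn1r127 (5.06), then the pair Vmn1r100 and Vmn1r148 (5.03). Standard deviations over the 16 arrays had a median of 0.34 among Vmn1r genes. The lowest means were those of Vmn1r17 (2.66), Vmn1r37 (2.68), Vmn1r233 (2.71), Vmn1r179 (2.72) and Vmn1r232 (2.77).

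Receptors with known ligands had low values too. Vmn1r49 (V1rb2), a receptor for the urinary ketone 2-heptanone, had a mean of 3.10. The V1rj receptors Vmn1r89 and Vmn1r85, which respond to sulfated estrogens, had means of 3.51 and 3.16. By older subfamily letter the median of the means ran between 3.22 for the single V1rk gene and 3.99 for the 20 V1rh genes. By chromosome it ran between 3.28 for the 14 genes of chromosome 17 and 4.20 for the 2 genes of chromosome 4. The widest spread over the 16 arrays was that of Vmn1r203, whose SD of 0.63 came from 1 library: odor titled GFP- pool 3 was at 5.35 and the other 15 libraries lay between 2.70 and 3.63. Vmn1r4 and Vmn1r122 followed with SDs of 0.61 each.

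Other vomeronasal gene lists gave low values for MHC, formyl peptide receptor and gland genes and mostly higher ones for signalling genes. The vomeronasal MHC genes (H2-M1, H2-M9, H2-M10.1 to H2-M10.6 and H2-M11), which mark a subset of basal vomeronasal neurons, were below the negative-control median in 9 of 9 cases, with H2-M10.2 the highest at 4.54. The formyl peptide receptors measured were below it in 3 of 3 cases, and the vomeronasal gland lipocalins Lcn3 and Lcn4 in 2 of 2. Of 11 measured genes listed for vomeronasal neuron signalling and identity, 8 were above the median, led by Gnao1 at 16.19, and 4 were higher in titled GFP+ in odor libraries on 14 arrays by limma. On 16 arrays Gnai2, Gng8 and Gng2 of these passed and Meis2 did not (limma adjusted p 0.107). The 3 below the negative-control median were Tfap2e (2.88), Calr4 (4.38) and Meis2 (5.13). Most of this list is known from other neurons or other mucosa cells too. Gnai2, the partner of Vmn1r receptors, averaged 12.13 in odor titled GFP+ and 7.81 in odor titled GFP-. The olfactory marker protein gene Omp, a marker of mature olfactory neurons, had a mean of 18.55. Trpc2 was not analysed here.

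As deposited, Vmn1r values were lower in the libraries titled GFP+ than in those titled GFP-. The library median over the 199 genes was 3.56, 3.63, 3.71 and 3.58 in odor titled GFP+, against 3.92, 3.85, 3.87 and 3.91 in odor titled GFP-. The groups did not overlap. In vehicle libraries it was 3.62, 3.60, 3.78 and 3.61 in titled GFP+, against 3.71, 3.83, 3.71 and 3.84 in titled GFP-. Here the titled GFP+ library of pool 3 lay inside the titled GFP- range, and without pool 3 the groups did not overlap. Group means were 3.62 ± 0.07 in odor titled GFP+ and 3.89 ± 0.03 in odor titled GFP- (SD, n = 4 each), and 3.65 ± 0.08 in vehicle titled GFP+ and 3.77 ± 0.07 in vehicle titled GFP- (SD, n = 4 each). Library medians of all genes were apart the other way, at 6.96 to 7.09 in odor titled GFP+ against 6.63 to 6.73 in odor titled GFP-. In vehicle without pool 3 they were 7.05 to 7.07 against 6.63 to 6.74. Those of the negative controls overlapped, at 5.25 to 5.65 against 5.32 to 5.82 in odor and 5.17 to 5.53 against 5.25 to 6.03 in vehicle without pool 3. With 196 of the 199 gene means below the negative-control median, whether the Vmn1r library medians follow transcript or background signal was not tested. Where they follow transcript, fewer cells of a type and less RNA per cell cannot be told apart in these bulk libraries.

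**Figure D2:**
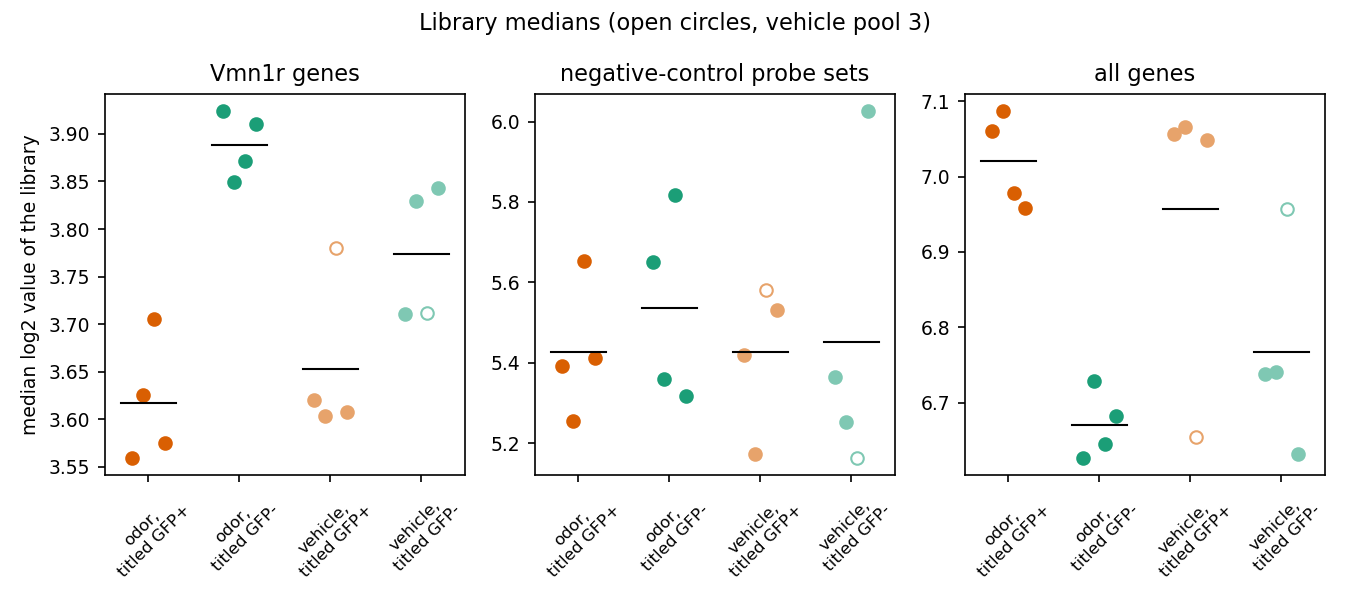
Median log2 value of each library over the Vmn1r genes (left), the negative-control probe sets (middle) and all genes (right), with a separate vertical scale in each panel. Points are libraries, open circles are vehicle pool 3, and lines are group means of 4 libraries. The Vmn1r medians are lower and the all-gene medians higher in odor titled GFP+ than in odor titled GFP-, while the negative-control medians overlap.

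The shift was small, and other low families and the odorant receptors had medians of like size. The median of the per-gene odor differences was -0.22 over Vmn1r genes, with 161 of 199 (80.9%) below 0, and -0.08 over all genes, of which 62.5% were below 0. It was -0.25 over Vmn2r genes (82.5% below 0), -0.23 over Tas2r genes (80.0%) and -0.09 over negative-control probe sets (58.4%). Over Olfr genes it was -0.22 (55.7% below 0) and over Taar genes -0.39 (60.0%). In vehicle libraries on 14 arrays it was -0.17 over Vmn1r genes (141 of 199 below 0) and -0.10 over all genes. In those libraries Vmn2r genes had -0.25, Tas2r genes -0.18, Olfr genes -0.27, Taar genes -0.49 and negative-control probe sets -0.14. With arrays shifted to 1 median of the negative controls, the odor median over Vmn1r genes was -0.11 with 141 of 199 below 0, and the vehicle median on 14 arrays was 0.00 with 99 below 0. With each array centred on its median they were -0.57 with 196 below 0 and -0.52 with 192 below 0. On 16 arrays as deposited the vehicle values were -0.13 over Vmn1r genes and -0.06 over all genes. Relative to the median of all genes the odor value was -0.14 as deposited and -0.09 after quantile normalization, and the vehicle value on 14 arrays was -0.07 as deposited and turned to 0.01 after quantile normalization.

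Markers of several cell types also differed between the fractions. The 7 myeloid and lymphoid marker genes had a mean of 9.24 to 11.85 per library in odor titled GFP+ against 4.56 to 5.83 in odor titled GFP-, with 7 of 7 higher on 14 arrays by limma, and 1 of the 7 (Cd3e) had a mean below the negative-control median. The 4 activity-raised genes had 13.74 to 14.11 against 14.99 to 15.55, with 4 of 4 lower. The 11 mature olfactory neuron genes had 15.93 to 16.11 against 16.03 to 16.28, with 1 lower. Of the other lists, 5 of 6 sustentacular, 4 of 4 microvillar, 3 of 5 immature neuron and 2 of 4 basal genes were higher and 0 lower. In vehicle libraries on 14 arrays 7 of 7 myeloid and lymphoid, 3 of 6 sustentacular, 4 of 4 microvillar, 3 of 5 immature neuron and 2 of 4 basal genes were higher, and 4 of 4 activity-raised genes and 1 of 11 mature neuron genes lower. Of the genes counted for odor, S100a5, Kirrel2, Lrrc3b, Cyp2a5, Cyp2g1, Neurog1 and Cd79a did not pass on 16 arrays (limma adjusted p 0.0535 to 0.178). For vehicle 0.0% of all genes passed on 16 arrays. The part of these cell types in the Vmn1r differences was not tested.

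In the odor libraries, 5 of 199 Vmn1r genes (2.51%) were lower in titled GFP+ than in titled GFP- on 16 arrays and 0 were higher, in limma with Benjamini-Hochberg adjustment over 19505 genes at 0.05. The background was 6.97% of all genes in both directions, 2.39% lower and 4.57% higher, so the share of lower members was near that of all genes. The 5 were Vmn1r206, Vmn1r207 and Vmn1r196 on chromosome 13, Vmn1r70 on chromosome 7 and Vmn1r226 on chromosome 17. On 14 arrays 11 (5.53%) were lower and 0 higher, against a background of 4.59% lower and 8.59% higher, and these included all 5. With the pool of mice as a block, 0 members passed on 16 arrays, where 2 of all genes were lower and 0 higher. On 14 arrays 13 members were lower under that block, with 934 of all genes lower. With arrays shifted to 1 median of the negative controls, 2 members passed on either set, Vmn1r206 and Vmn1r207. After that shift 193 of all genes were lower on 16 arrays and 380 on 14. The 5 genes named for 16 arrays lay below the negative-control median in every library, so their differences are between listed values near background and give no amount of transcript.

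Vmn1r206 (V1rh7) had the lowest odor difference among the listed values of the family. Its values were 3.70, 3.05, 3.16 and 2.99 in odor titled GFP+, against 4.61, 3.90, 4.28 and 4.39 in odor titled GFP-. The groups did not overlap, and the difference was negative in each of the 4 pools. In vehicle libraries it had 3.25, 3.25, 3.64 and 3.39 in titled GFP+, against 3.77, 3.50, 3.90 and 3.62 in titled GFP-, and there the groups overlapped only through pool 3. The odor difference was -1.07 ± 0.18 (limma SE), with an adjusted p of 0.0286 on 16 arrays and 0.000551 on 14. With the pool block the adjusted p was 0.147 on 16 arrays and 0.000600 on 14. The vehicle difference on 14 arrays was -0.34 ± 0.21 (limma SE), with an adjusted p of 0.380.

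Vmn1r207, the next gene on the chromosome, had 3.79, 4.05, 3.66 and 4.63 in odor titled GFP+, against 4.97, 4.73, 5.42 and 5.18 in odor titled GFP-. All 4 titled GFP- values were above all 4 titled GFP+ values. The difference was -1.04 ± 0.25 (limma SE), with an adjusted p of 0.0296 on 16 arrays and 0.00717 on 14. Vmn1r196 (V1rh19) had 3.18, 4.23, 3.88 and 3.81 in odor titled GFP+, against 4.44, 4.63, 4.69 and 5.15 in odor titled GFP-. The groups did not overlap, whereas its vehicle libraries mixed, at 3.80 to 4.10 in titled GFP+ and 3.66 to 4.14 in titled GFP-. Its odor difference was -0.95 ± 0.21 (limma SE), with an adjusted p of 0.0286 on 16 arrays and 0.00558 on 14, and its vehicle difference on 14 arrays was 0.02 ± 0.24 (limma SE).

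Vmn1r70 (listed as V1rd2) had 3.35, 3.23, 3.16 and 3.50 in odor titled GFP+, against 4.19, 4.12, 4.03 and 3.69 in odor titled GFP-. The groups were apart, by 0.70 ± 0.18 between their means (limma SE, adjusted p 0.0369 on 16 arrays and 0.0164 on 14). Vmn1r226 (V1re2) was among the lowest members, with 2.50, 2.69, 2.84 and 2.78 in odor titled GFP+ against 3.22, 2.78, 3.78 and 3.74 in odor titled GFP-. Its titled GFP- library of pool 2 lay within the titled GFP+ range. The difference was -0.68 ± 0.19 (limma SE), with an adjusted p of 0.0489 on 16 arrays and 0.0380 on 14.

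**Figure D3:**
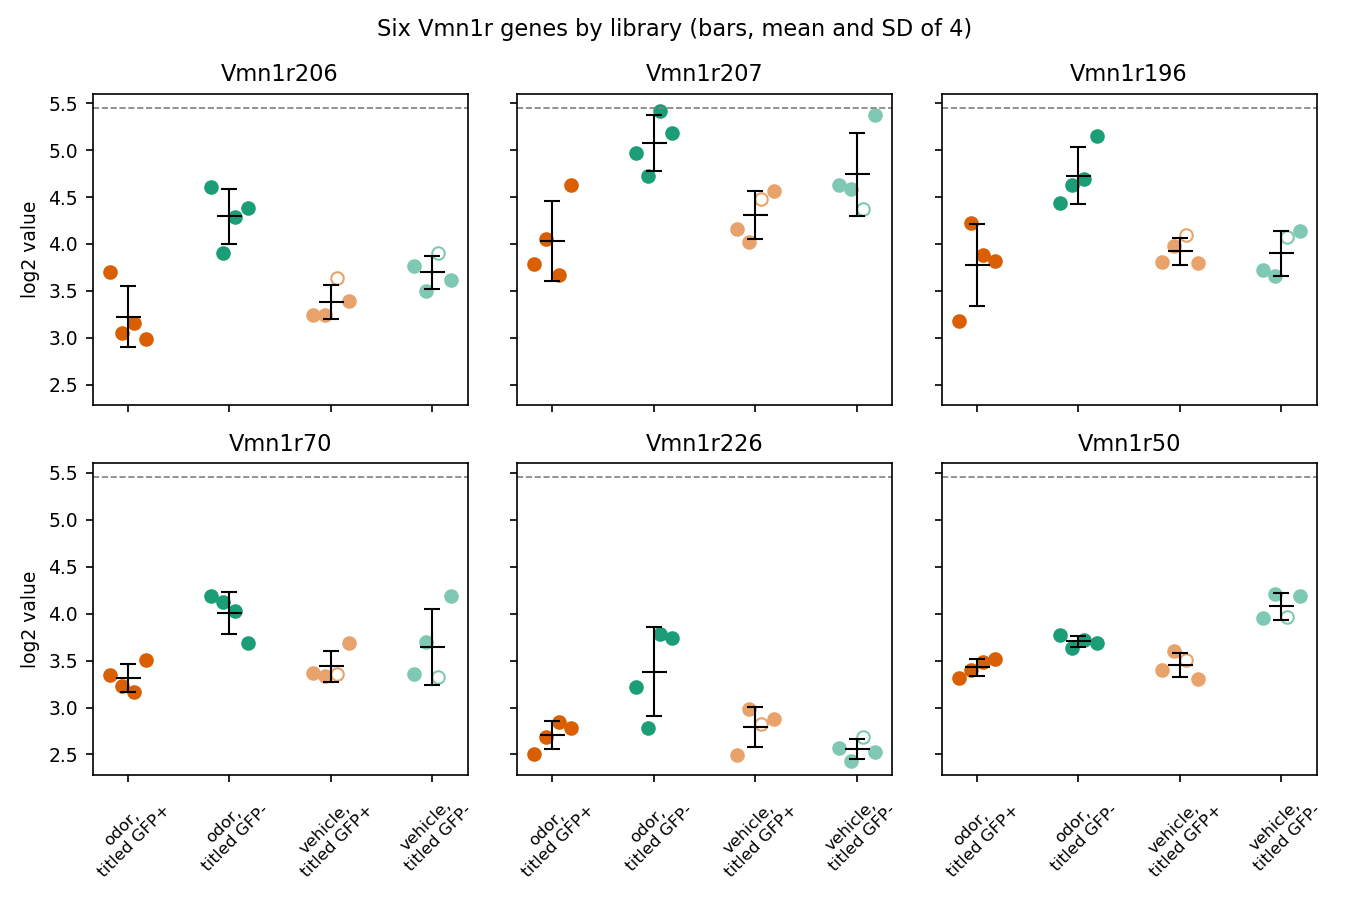
Log2 values of 6 Vmn1r genes in each library. Points are libraries, open circles are vehicle pool 3, bars are the mean and SD of 4 libraries, and the dashed line is the median of the negative-control probe sets. Every point lies below the dashed line, and odor titled GFP- has the highest group mean in 5 of the 6 panels and vehicle titled GFP- in that of Vmn1r50.

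The further 6 genes that passed in odor libraries on 14 arrays were Vmn1r209, Vmn1r244, Vmn1r1, Vmn1r72 and the pair Vmn1r100 and Vmn1r148. Their differences ran between -0.78 for Vmn1r72 and -0.50 for Vmn1r244, with limma adjusted p between 0.0272 and 0.0460. Vmn1r72 had 3.07, 3.09, 3.46 and 2.99 in odor titled GFP+, against 3.70, 4.21, 3.86 and 3.98 in odor titled GFP-, with no overlap. The pair Vmn1r100 and Vmn1r148 had 4.57, 4.25, 5.42 and 4.86 in odor titled GFP+, against 5.20, 5.53, 5.92 and 5.54 in odor titled GFP-. Here the ranges overlapped, and the titled GFP+ library of pool 3 was the high one of its group. Leaving out 1 library also moved these counts. On 16 arrays 0 members passed without any 1 of the odor titled GFP- libraries or without odor titled GFP+ pool 2 or 3, 1 without odor titled GFP+ pool 1, and 8 without vehicle titled GFP- pool 3. The fits without those odor libraries called 0 or 1 of 19505 genes higher and 2 or 3 lower. With all 16 arrays 892 were higher and 467 lower, and without vehicle titled GFP- pool 3 it was 1208 and 641. On 14 arrays 4 members passed without odor titled GFP- pool 4, with 738 of all genes lower. Without odor titled GFP+ pool 2 it was 5 members, with 657 of all genes lower.

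In vehicle libraries, 0 members passed on 16 arrays, where limma called 0.0% of all genes, and 2 members were higher and 11 lower at an unadjusted p under 0.05. All genes were not counted at that unadjusted threshold, so these member counts have no background. On 14 arrays 5 members (2.51%) passed as lower in titled GFP+ and 0 as higher, against a background of 3.32% lower and 7.86% higher. They were Vmn1r50, Vmn1r172, Vmn1r77, Vmn1r9 and Vmn1r222, and 0 of them were among the 11 of the odor libraries. Over all genes on 14 arrays, 454 were lower in both treatments, which is 50.7% of those lower in odor libraries and 70.2% of those lower in vehicle libraries. Without vehicle titled GFP- pool 4 the count of members was 1, and without vehicle titled GFP- pool 2 or vehicle titled GFP+ pool 2 or 4 it was 3. The counts of all genes in those fits are not given here, so these member counts have no background. With arrays shifted to 1 median of the negative controls the count of members was 0, with 269 of all genes lower. Whether the odor and vehicle differences of these genes differ is the subject of the last comparison, where 0 members passed.

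Vmn1r50 (V1rb1) had 3.40, 3.60, 3.50 and 3.31 in vehicle titled GFP+, against 3.95, 4.21, 3.96 and 4.19 in vehicle titled GFP-. It was the one of these 5 genes whose vehicle groups did not overlap even with pool 3 included. The difference on 14 arrays was -0.68 ± 0.14 (limma SE, adjusted p 0.00406). In odor libraries it had 3.32, 3.40, 3.49 and 3.52 in titled GFP+, against 3.77, 3.64, 3.72 and 3.69 in titled GFP-. Those groups were also apart, at a difference of -0.27 ± 0.11 on 16 arrays (limma SE, adjusted p 0.158). In Vmn1r172 (V1rd9) pool 3 ran against the other pools, with 3.05, 3.42, 3.83 and 3.00 in vehicle titled GFP+ against 3.75, 4.19, 2.78 and 4.35 in vehicle titled GFP-. Pool 3 held the highest titled GFP+ and the lowest titled GFP- value. Its difference was -0.44 on 16 arrays (limma adjusted p 0.654) and -0.94 ± 0.22 (limma SE, adjusted p 0.0104) on 14.

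**Figure D4:**
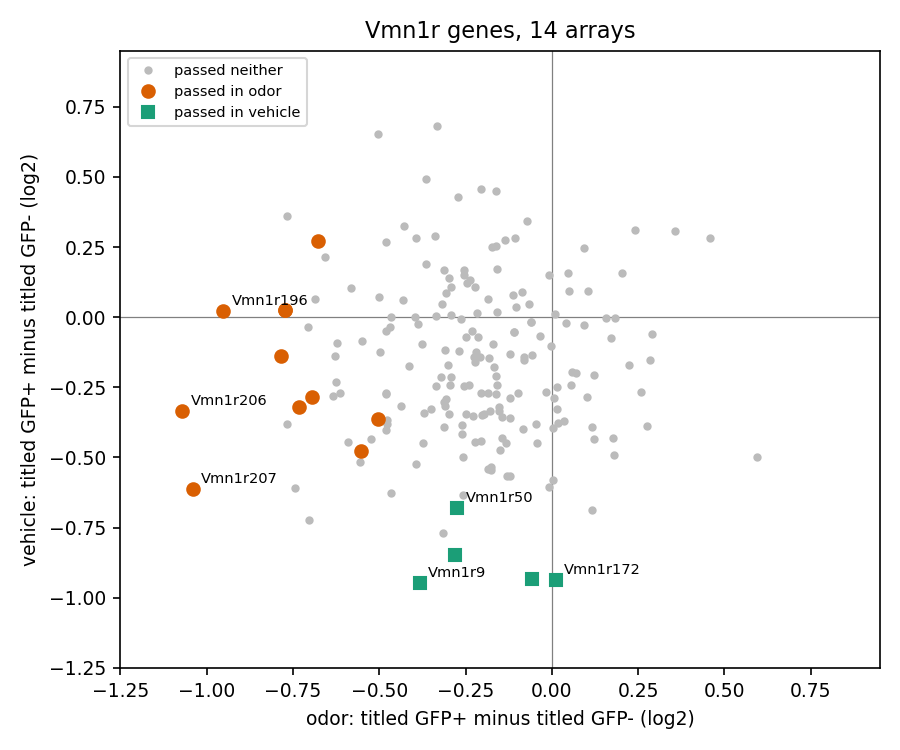
Log2 difference titled GFP+ minus titled GFP- of each Vmn1r gene in odor libraries (horizontal) and in vehicle libraries (vertical), on 14 arrays. Orange circles passed in odor libraries, green squares in vehicle libraries and grey points in neither. Most points lie left of and below 0, 11 passed in odor, 5 in vehicle, and no Vmn1r gene passed in both. Of all genes, 454 were lower in both, which is 50.7% of those lower in odor and 70.2% of those lower in vehicle. The test of a difference between the 2 treatments passed for 0 Vmn1r genes. Vmn1r100 and Vmn1r148 share 1 point.

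With both treatments averaged, 9 members (4.52%) were lower in titled GFP+ on 16 arrays and 0 higher, against a background of 3.9% lower and 6.91% higher. On 14 arrays 15 (7.54%) were lower and 0 higher, against a background of 8.51% lower and 11.5% higher. These use the same libraries as the comparisons above and are no independent evidence. With the pool block 0 members passed on 16 arrays and 19 on 14, and with the shift to the negative controls 2 and 1. Of all genes, 1 and 1817 were lower with the block, and 282 and 497 with the shift. On 16 arrays 4 members passed without vehicle titled GFP- pool 4 or vehicle titled GFP+ pool 2, and 5 without odor titled GFP- pool 4, odor titled GFP+ pool 1 or vehicle titled GFP+ pool 4. Those fits called 384 to 549 of all genes lower. On 14 arrays 9 members passed without vehicle titled GFP- pool 4, 8 lower and 1 higher. There 1497 of all genes were lower and 2072 higher. Vmn1r206 had an averaged difference of -0.70 ± 0.14 on 14 arrays (limma SE, adjusted p 0.00134) and was lower in titled GFP+ in each of the 8 pools, pool 3 of the vehicle included. Vmn1r50 had -0.48 ± 0.09 (limma SE, adjusted p 0.00153) and was also lower in each of the 8 pools. Vmn1r175, one of the higher members, had 5.16, 3.94, 4.86 and 4.58 in odor titled GFP+ against 5.64, 5.48, 5.06 and 5.18 in odor titled GFP-, and 4.67, 5.08, 5.12 and 4.63 in vehicle titled GFP+ against 5.77, 5.75, 6.22 and 5.04 in vehicle titled GFP-. Within every pool its titled GFP+ value was the lower one, and the averaged difference was -0.71 ± 0.19 on 14 arrays (limma SE, adjusted p 0.0138). Of the 3 members above the negative-control median, Vmn1r208 alone passed, on 16 arrays only, at -0.49 ± 0.15 (limma SE, adjusted p 0.0414), against an adjusted p of 0.0664 on 14.

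Over the 3 fraction comparisons on either set of arrays, 23 members (11.6%) were lower in titled GFP+ at least once and 0 were higher, against 9.26% of all genes lower and 11.7% higher at least once. By chromosome they were 6 of 35 on chromosome 13, 10 of 95 on chromosome 7, 3 of 51 on chromosome 6, 2 of 14 on chromosome 17, 0 of 2 on chromosome 4 and the single genes of chromosomes 1 and 18. Vmn1r206, Vmn1r207, Vmn1r208 and Vmn1r209 follow one another among the protein-coding genes of chromosome 13 in the RefSeq table, and each passed in at least 1 of the 3 comparisons. Their odor differences were -1.07 ± 0.18, -1.04 ± 0.24, -0.61 ± 0.21 and -0.73 ± 0.21 on 14 arrays (limma SE). The neighbours on either side, Vmn1r205 and Vmn1r210, had -0.30 ± 0.35 and -0.26 ± 0.25 and did not pass. Vmn1r209 had 3.41, 2.83, 2.99 and 3.42 in odor titled GFP+, against 4.04, 3.39, 3.98 and 4.19 in odor titled GFP-.

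**Figure D5:**
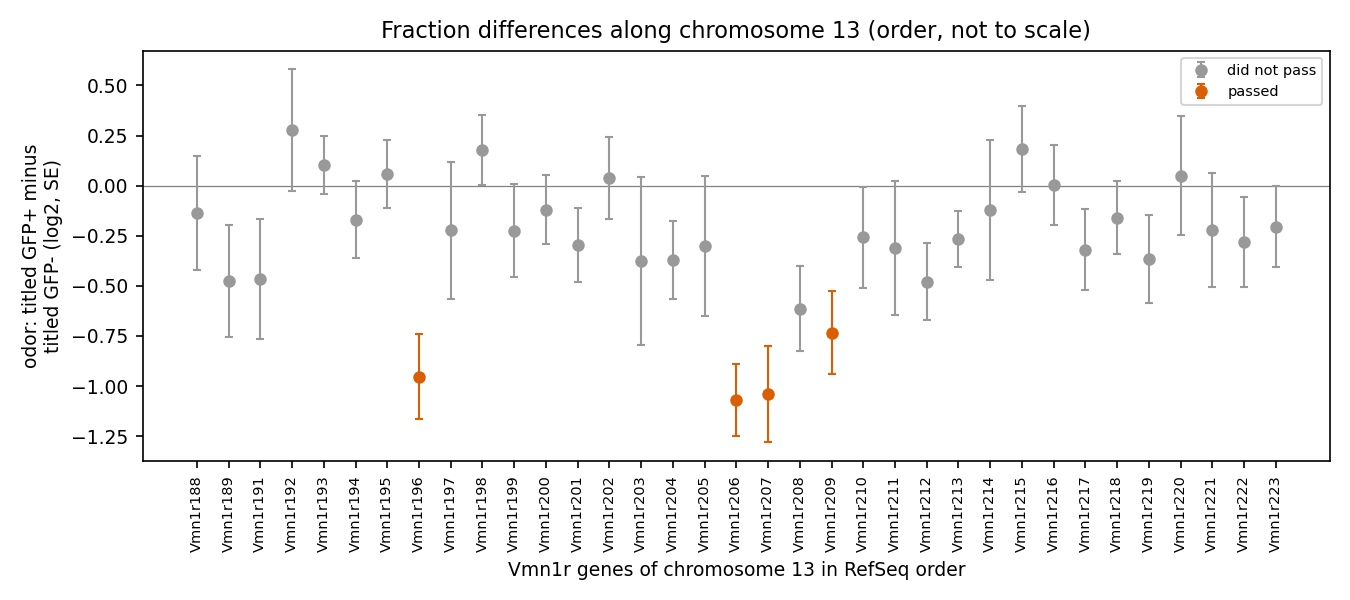
Odor difference, titled GFP+ minus titled GFP- in log2 units, of the 35 Vmn1r genes of chromosome 13 on 14 arrays, in RefSeq order and not to scale. Points are limma estimates, bars are their standard errors, and orange points passed. Vmn1r196, Vmn1r206, Vmn1r207 and Vmn1r209 passed, and Vmn1r206 to Vmn1r209 stand side by side.

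The starts of these 4 neighbours are shown because the genes lie together and each passed. RefSeq (GRCm38.p6) gives a window of 250 bases before to 50 after the start for 176 of the 199 genes. In 151 of the 176 (85.8%) the annotated start is the ATG itself, so the window there is the sequence before the coding start and need not hold the promoter. The 4 genes lie on the minus strand at chr13:22620986-22621285 (Vmn1r206), chr13:22726573-22726872 (Vmn1r207), chr13:22806469-22806768 (Vmn1r209) and chr13:22773276-22773575 (Vmn1r208). Capitals mark the start codon in Vmn1r206 and, in the others, the bases that do not match Vmn1r206 in a pairwise alignment.
Vmn1r206: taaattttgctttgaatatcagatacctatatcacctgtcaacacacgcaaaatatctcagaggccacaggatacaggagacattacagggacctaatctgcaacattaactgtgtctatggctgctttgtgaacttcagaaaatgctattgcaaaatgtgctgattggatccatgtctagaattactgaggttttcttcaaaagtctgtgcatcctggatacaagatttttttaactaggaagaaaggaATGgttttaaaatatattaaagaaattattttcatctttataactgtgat
Vmn1r207: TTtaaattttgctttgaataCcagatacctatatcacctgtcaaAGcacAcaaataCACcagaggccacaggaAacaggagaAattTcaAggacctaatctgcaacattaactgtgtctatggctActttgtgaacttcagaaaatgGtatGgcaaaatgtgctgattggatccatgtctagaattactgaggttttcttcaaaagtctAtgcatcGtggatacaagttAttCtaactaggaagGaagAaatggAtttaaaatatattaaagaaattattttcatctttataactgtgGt
Vmn1r209: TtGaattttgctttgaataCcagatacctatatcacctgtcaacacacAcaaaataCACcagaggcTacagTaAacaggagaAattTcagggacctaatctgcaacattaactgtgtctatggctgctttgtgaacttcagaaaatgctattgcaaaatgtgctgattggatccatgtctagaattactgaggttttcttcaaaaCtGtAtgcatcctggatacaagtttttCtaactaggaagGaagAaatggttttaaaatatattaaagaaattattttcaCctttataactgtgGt
Vmn1r208: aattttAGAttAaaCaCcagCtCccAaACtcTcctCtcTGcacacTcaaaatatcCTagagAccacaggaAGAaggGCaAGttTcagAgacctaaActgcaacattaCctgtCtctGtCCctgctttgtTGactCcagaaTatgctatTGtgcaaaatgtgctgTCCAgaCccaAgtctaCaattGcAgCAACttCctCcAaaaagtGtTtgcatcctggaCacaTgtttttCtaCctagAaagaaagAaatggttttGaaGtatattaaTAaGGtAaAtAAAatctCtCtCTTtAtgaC
In these alignments 24 bases of Vmn1r207, 20 of Vmn1r209 and 82 of Vmn1r208 did not match Vmn1r206. Identity was 91.4% between Vmn1r206 and Vmn1r207, 93.0% between Vmn1r206 and Vmn1r209, and 94.4% between Vmn1r207 and Vmn1r209. Vmn1r208, which had the highest level of the family, was at 71.9% against Vmn1r206. The windows do not show which probe sets are separate measurements, since Vmn1r100 and Vmn1r148, with the same values on all 16 arrays, had windows 47.3% identical. Probe sequences were not used here, and whether the probe sets of such close copies detect one another's transcripts was not tested.

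Motifs bound by regulators of odorant receptor genes were searched on both strands of these windows, with overlapping matches of the 2 motifs allowed. The EBF motif CCCNNGGG was found in 1 of 176 Vmn1r windows (0.568%), 29 of 940 Olfr windows (3.09%) and 22 of 116 Vmn2r windows (19.0%). It was found in 13.4% of all 27025 windows, which were not limited to genes of the array. The homeodomain core TAATTA was found in 15 of 176 Vmn1r windows (8.52%), 18.7% of Olfr windows, 17.2% of Vmn2r windows and 5.31% of all windows. The median GC content was 35.7% in Vmn1r, 35.0% in Olfr and 38.0% in Vmn2r windows, and 52.7% in all windows. The windows of the 4 neighbours held neither motif. The annotated start was the ATG in 85.8% of Vmn1r, 72.9% of Olfr and 86.2% of Vmn2r windows, but in 6.75% of all windows. Most windows of these 3 families are thus placed on the coding start, and most of all windows are not. The motif shares are counts of letters in windows around annotated starts.

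No Vmn1r gene passed the threshold between odor and vehicle libraries. Between odor and vehicle in titled GFP+ libraries, 0 of 199 passed in limma on 16 arrays (0.0% of all genes) and on 14 arrays (0.0359% of all genes, 0.0308% higher and 0.00513% lower), with 2 higher and 5 lower at an unadjusted p under 0.05 on 16 arrays and 4 higher and 2 lower on 14. In titled GFP- libraries 0 passed on 16 arrays (0.0103% of all genes) and on 14 (0.0256%, of which 0.0205% higher). Unadjusted, 18 members were higher and 2 lower on 16 arrays, and 18 higher and 8 lower on 14. The shares of all genes are for the adjusted threshold. All genes were not counted at the unadjusted one, so the unadjusted member counts have no background in either fraction. The median odor difference over the family was -0.03 in titled GFP+ and 0.08 in titled GFP- on 16 arrays, with -0.01 for all genes in each. With arrays shifted to 1 median of the negative controls, the titled GFP- counts on 16 arrays were 6 higher and 4 lower and the median was -0.01, below 0 for 101 of 199.

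In titled GFP- the 3 smallest p-values were those of Vmn1r226, Vmn1r169 and Vmn1r54 on 16 arrays. On 14 arrays they were those of Vmn1r226, Vmn1r142 and Vmn1r196. The values of Vmn1r226 and Vmn1r169 are given here. Vmn1r226 had 3.22, 2.78, 3.78 and 3.74 in odor titled GFP-, against 2.57, 2.43, 2.69 and 2.53 in vehicle titled GFP-. Every odor value was above every vehicle value, at a difference of 0.83 ± 0.19 on 16 arrays (limma SE, adjusted p 0.533). Vmn1r4 (V1rc21) was not among these but had the largest difference in this comparison. It had 4.87, 4.65, 4.26 and 4.64 in odor titled GFP-, against 3.21, 3.33, 3.18 and 3.99 in vehicle titled GFP-. Its groups were also apart, by 1.18 ± 0.29 on 16 arrays (limma SE, adjusted p 0.533), and its odor titled GFP+ libraries reached as high as 4.67. Vmn1r169 differed the other way, with 3.56, 4.09, 4.26 and 3.69 in odor titled GFP- against 4.87, 4.60, 5.01 and 4.36 in vehicle titled GFP-, at -0.81 ± 0.19 (limma SE, adjusted p 0.533). In titled GFP+ the lowest adjusted p on 14 arrays was that of Vmn1r219, which had 3.31, 3.74, 3.66 and 2.92 in odor against 4.84, 4.21 and 4.03 in vehicle pools 1, 2 and 4 (limma adjusted p 0.241). Vehicle pool 3, at 3.21, lay with the odor libraries.

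The difference between the odor and the vehicle fraction differences was tested for each gene in the same limma model. 0 of 199 members passed on 16 arrays (0.00513% of all genes) and on 14 arrays (0.0103%), with 2 higher and 11 lower at an unadjusted p under 0.05 on 16 arrays and 6 higher and 12 lower on 14. The unadjusted counts have no background, because all genes were counted at the adjusted threshold only. Vmn1r196, with an odor difference of -0.95 and a vehicle difference of 0.02, had -0.97 ± 0.29 on 16 arrays (limma SE, unadjusted p 0.00467, adjusted p 0.999). Vmn1r54 (V1ra9) had the lowest of these values on 16 arrays. Its levels were 4.45, 4.67, 4.12 and 4.46 in odor titled GFP+ against 5.60, 4.73, 4.73 and 5.70 in odor titled GFP-, and 5.10, 4.43, 4.89 and 3.93 in vehicle titled GFP+ against 4.15, 4.14, 4.16 and 4.08 in vehicle titled GFP-. The fractions ran opposite ways in the 2 treatments, at -1.22 on 16 arrays (limma adjusted p 0.999). A difference in the fraction effect between treatments was thus not detected for any member with 4 libraries a group.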

How the data were processed

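Affymetrix arrays of 16 libraries were analysed, 4 in each of 4 groups. The authors deposited their values as log2 in a single table, and per the submitters' processing notes the software was Affymetrix Expression Console. How probes were summarized, and on which genome build, is not given in the sources used here. Values reached 19.4, above the range of a 16-bit scanner, so no difference is turned into a fold. Arrays have no read depth, and their number limits the precision.

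Of 28846 probe sets, 19572 had 1 gene symbol and 0 had several, 6640 were controls and 2634 had no listed gene. The probe set with the highest mean over 16 arrays stood for a gene, which left 19505 genes. No 2 libraries had the same values, with correlations over genes of 0.946 to 0.995.

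Two-sided tests used lmFit and eBayes of limma 3.58.1 (R 4.3.3), with group means as the model and no block, on 16 and on 14 arrays. Benjamini-Hochberg adjustment ran over 19505 genes, at a threshold of 0.05. The fit was tested on simulated data. The 2 libraries of a pool come from the same 3 mice per the labels, so the pool is a block in an alternative fit. Deviations of such libraries from their group means correlated at 0.13 to 0.25 in odor pools, and at -0.75 to -0.06 in vehicle pools on 16 arrays. On 14 arrays the vehicle pools were at -0.02 to 0.29. Other alternatives were array scaling, a filter on dim genes, identical rows counted once and leaving out each library.

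The members, the marker lists and the 14 arrays were chosen with earlier results of these data known. Named genes were those that passed in any comparison, the 10 highest and 5 lowest by mean, the 5 largest differences in either direction, the 3 smallest p-values of each odor comparison and the 5 with the largest SD. Windows were aligned pairwise with Biopython 1.88.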

Additional observations from a re-analysis of the deposited data

Results flagged for a closer look

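In 200 groups of 4 libraries (the named Vmn1r genes and the family median in each group), 11 had 1 library apart from the other three by Dixon's criterion, which chance gives in about 1 group in 20.

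For the family median the library was vehicle titled GFP+ pool 3, at 3.78 against 3.60 to 3.62 in the others of its group. The same library was high for Vmn1r72, at 4.93 against 3.26 to 3.43, and for Vmn1r198 (V1ri3), at 3.91 against 3.25 to 3.34. It is 1 of the 2 libraries of the pool that went against its titles for S100a5, and the fits on 14 arrays leave it out. Elsewhere in vehicle titled GFP+, pool 4 was high for Vmn1r70, at 3.68 against 3.34 to 3.37, and pool 2 was low for Vmn1r117, at 6.25 against 6.44 to 6.46.

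In odor titled GFP- the library apart was pool 3 for Vmn1r177, at 6.07 against 5.61 to 5.65, and for Vmn1r79, at 2.99 against 4.55 to 4.76. Pool 2 was high for Vmn1r179, at 3.40 against 2.60 to 2.73, and pool 4 for Vmn1r219, at 4.12 against 3.63 to 3.70. Vmn1r122 was high in 2 groups, in odor titled GFP- pool 1 at 4.99 against 2.96 to 3.25 and in odor titled GFP+ pool 4 at 3.80 against 2.78 to 2.88. Of the 11, 1 lay in odor titled GFP+, 5 in odor titled GFP-, 5 in vehicle titled GFP+ and 0 in vehicle titled GFP-.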

How the results depend on the processing

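None of the differences recomputed here, those of genes that passed or came nearest to passing, changed sign under an alternative. On 16 arrays the counts of Vmn1r genes that passed were 5 for odor, 0 for vehicle and 9 for the average of both treatments, and they moved to 11, 5 and 15 on 14 arrays. Centring each array on its median gave 66 for odor and 88 for the average on 16 arrays, and 107, 67 for vehicle and 147 on 14 arrays. But it called 4927 and 7777 of all 19505 genes lower on 16 arrays, and 8916, 6891 and 13111 on 14. It also moved the median odor difference of all genes to -0.44. Shifting arrays to 1 median of the negative controls, chosen after seeing the data, gave 2 for odor and 2 for the average on 16 arrays, and 2, 0 for vehicle and 1 on 14. It called 193 and 282 of all genes lower on 16 arrays, and 380, 269 and 497 on 14. Quantile normalization gave 8 for odor on 16 arrays and 25 for the average on 14, of which 1 was higher. Of all genes it called 715 lower for odor on 16 arrays, and 3252 lower and 2110 higher for the average on 14. Keeping only genes above the negative-control median left 3 members in the test, with 0 calls for odor and 1 for the average on 16 arrays and 0, 0 for vehicle and 0 on 14. With the pool of mice as a replicate block, 0 members passed for odor and 0 for the average on 16 arrays. On 14 arrays the block gave 13 for odor, 4 for vehicle and 19 for the average. Of all genes the block called 2 lower for odor and 1 for the average on 16 arrays, and 0 higher. On 14 arrays it called 934 lower for odor and 1817 for the average. Its count of all genes for vehicle is not given here. Libraries with the same replicate number across treatments had correlations of -0.20 to 0.43 on 16 arrays and -0.12 to 0.31 on 14. These values do not settle whether that number pairs libraries. Against the 95th percentile of the negative controls, 0 members rather than 3 were above background.

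Leaving out 1 library gave 0 to 8 members for odor, 0 to 2 for vehicle and 4 to 13 for the average on 16 arrays, and 4 to 12, 1 to 5 and 9 to 19 on 14. For odor against vehicle in either fraction, and for the difference of fraction differences, it gave 0 to 0 on both. On 16 arrays it called 2 to 739 of all genes lower for odor and 384 to 1489 for the average. On 14 arrays it called 653 to 902 and 1303 to 1713. For vehicle the counts of all genes are not given here, so its member ranges have no background. Among all genes that passed for odor on 16 arrays, the share higher in titled GFP+ was 65.6% as deposited, 17.2% after centring, 53.2% after quantile normalization and 74.2% after the shift. For vehicle on 14 arrays it was 70.3%, 16.1%, 52.8% and 84.5%, and for the average on 16 arrays 63.9%, 14.2%, 49.4% and 77.8%. Over the named genes' differences, 1029 recomputed values kept their side of the threshold and 272 no longer passed. The 1029 include differences that had not passed as reported, those of odor against vehicle and of fraction differences, which had no pass to lose. All 272 belong to differences that had passed, so the 2 counts do not give the share of passes kept. The cause of these changes was not tested.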

Other observations

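A vomeronasal receptor of the other class was listed well above the Vmn1r family. Vmn2r29 had a mean of 11.06, with 11.38, 10.62, 11.32 and 11.56 in odor titled GFP+, against 11.43, 11.04, 11.79 and 11.35 in odor titled GFP-. The fractions overlapped, and limma gave a difference of -0.18 ± 0.30 (SE, adjusted p 0.788 on 16 arrays). The next Vmn2r gene by mean, Vmn2r46, was at 6.41, and the highest bitter taste receptor, Tas2r102, at 5.74. These 3 genes were chosen after their values were seen.

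The 2 probe sets with Vmn1r pseudogene symbols lay outside the rule and had means of 3.52 (Vmn1r-ps103) and 3.23 (Vmn1r-ps79), within the range of the genes. The array's probe sets for background signal by GC content were at 7.03 with 3 G or C bases, fell to 2.38 at 14 and reached 7.31 at 25. Background signal was thus high at both ends of base content. Probe sequences were not used here.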
